A study of Mus musculus with 7 samples.

Results

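The Hox and lineage regulators described here were 58 genes of the 55411 nuclear genes annotated in GENCODE M21 (mouse genome build GRCm38). They were 57 of the 21938 nuclear protein-coding genes and the noncoding RNA Hand2os1. The genes were listed by name, as developmental genes known as Polycomb targets in embryonic stem cells, and no read count entered that rule. Earlier results of these data were known when the list was made. The list holds 16 Hox genes, 19 regulators of neural tissue and neural crest, 11 of mesoderm, heart and blood, 7 of endoderm and extraembryonic tissue, 4 Iroquois homeobox genes and Hand2os1. The table analysed holds RNA reads and no chromatin measurement, so whether these genes were repressed in the cells was not tested.

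The study asked which RNAs come down with the Polycomb protein Ezh2 in mouse embryonic stem cells. Its assay was RNA immunoprecipitation sequencing (RIP-seq), in which nuclei are lysed, a protein is captured by its antibody, and the RNA captured along with it is copied into cDNA and read. The labels list 1 library made with anti-Ezh2 antibody from Ezh2-null cells of strain M.musculus and 5 made with it from wild-type cells of strain 129X(M.castaneusX129). The 5 wild-type libraries include a technical replicate, a biological replicate and a deeper run of each of 2 samples. The remaining library was made from wild-type cells with IgG in place of the Ezh2 antibody. All cells were untreated and kept in medium with LIF, and nothing in the labels says how many clones or cultures they came from. The values below come from 1 table of read sequences and their counts, which cannot be assigned to any of the 7 libraries by the labels. It was treated as 1 pool, so there are no replicates and no comparison between antibodies or genotypes, and none of the values measures enrichment by the antibody.

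Polycomb repressive complex PRC2, whose catalytic subunit is Ezh2, places methyl groups on lysine 27 of histone H3. In embryonic stem cells this mark covers the promoters of many transcription factors that direct the later lineages, with the Hox clusters among the best known of its domains. Such genes are kept silent or nearly so until differentiation, and short or low-level transcripts have been described at some of them.

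The table holds 34072479 reads of 6540936 distinct sequences, 12 to 40 bases long. Of these, 31529044 reads were at least 26 bases long and were searched after their 6 leading bases had been left out. The regulators took 1780 of the searched reads over both strands, or 56.5 per 1000000. They had 1395 sense reads, which have the orientation of the gene's own RNA, at 311 start positions, and 385 antisense reads at 148 start positions. A start position is the genomic base that the 5′-most matched base of a read falls on. Read intervals are exact Poisson 95% intervals and intervals of shares are Clopper-Pearson 95% intervals. Both cover counting error only, since copies made by PCR cannot be told from separate molecules. RPKM here scales the sense reads of a gene to 1 kb of its merged exons and to 1000000 searched reads.

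Most of the regulators were read, but few were read often. Of the 57 coding regulators, 47 had at least 1 sense read (82.5%), against 72.2% of nuclear protein-coding genes. Only 8 had at least 50 sense reads (14%), against 29.1% of nuclear protein-coding genes. Another 6 regulators had 20 to 49 sense reads, 34 had 1 to 19 and 10 had none. The median sense level was 0.0598 RPKM over the 58 regulators and 0.0853 RPKM over nuclear protein-coding genes. The 12 stem cell markers had a median of 1.17 RPKM. The 8 highest regulators, Hoxc8, Nes, Otx2, Irx3, Tbx5, Hes1, Meis1 and Eomes, held 978 of the 1395 sense reads (70.1%), and Hoxc8 alone held 317 (22.7%).

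**Figure D1:**
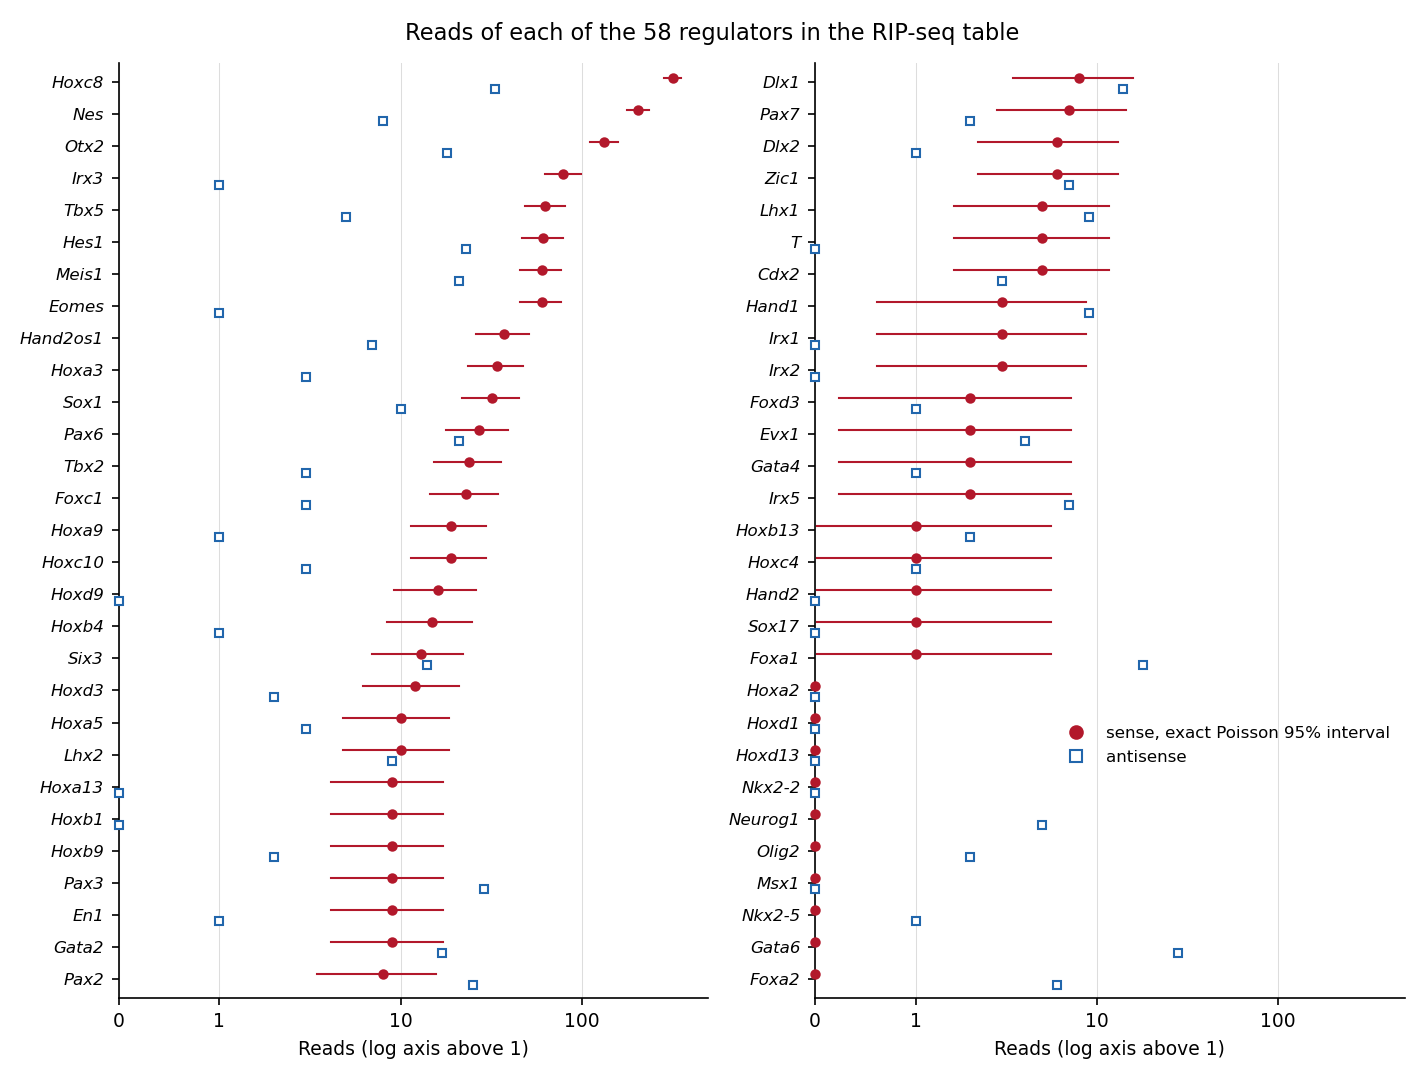
Reads of each regulator, ordered by sense reads, on a symmetric log axis. Filled circles are sense reads with exact Poisson 95% intervals and open squares are antisense reads. Hoxc8 leads with 317 sense reads, and 10 regulators are at 0 sense reads.

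**Figure D2:**
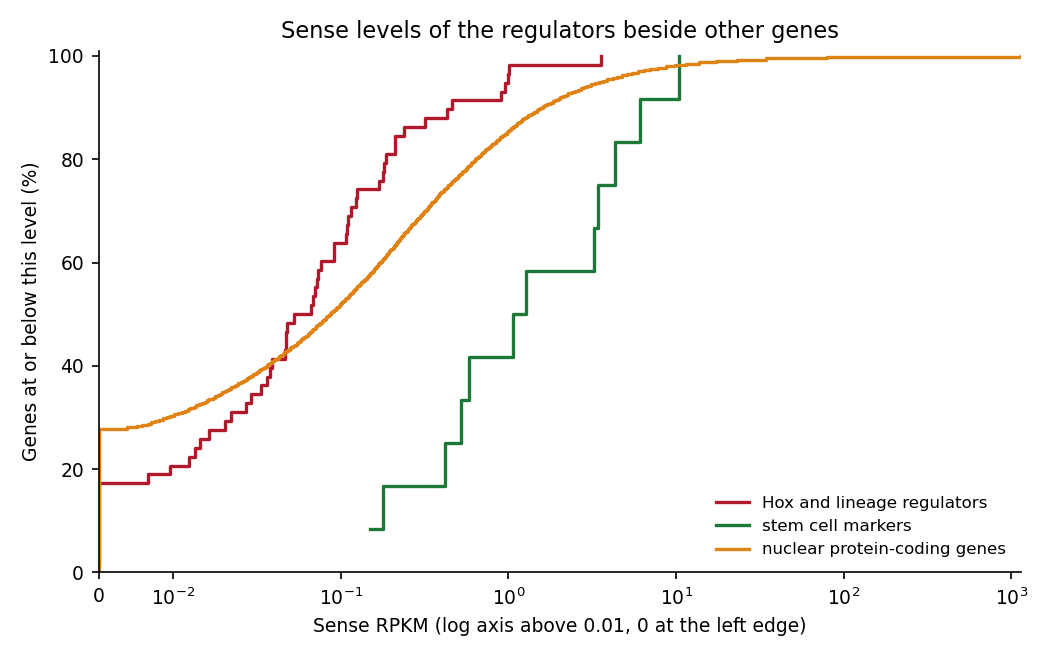
Cumulative share of genes (%) at or below each sense level (RPKM, log axis above 0.01) for the 58 regulators, the 12 stem cell markers and nuclear protein-coding genes. The curve of the regulators ends at 3.55 RPKM, that of the stem cell markers at 10.5 RPKM.

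Hoxc8 was the most read of all regulators. It is a homeobox transcription factor of the HoxC cluster (chromosome 15, 102990607 to 102994111, plus strand) that patterns the trunk. It had 317 sense reads (283 to 354) at 60 start positions, of which 77 were 36-base reads and 240 were 40-base reads. Its level was 3.55 RPKM (3.17 to 3.96), above that of 95.1% of nuclear protein-coding genes, while the highest of the 15 other listed Hox genes, Hoxa3, had 34 sense reads. The reads were not spread over the mRNA, since 278 (87.7%) began in its last exon. Within that exon 155 reads (48.9%) of 81 distinct sequences began at 19 positions between bases 815 and 844 of the transcript, in the last part of the coding sequence. A further 77 reads (24.3%) began at 11 positions between bases 885 and 914, around the end of the coding sequence.

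Reads from some of the most used positions of the densest stretch are shown because they overlap without being copies of a single sequence. Each is written 5′ to 3′ as read, which is the complement of the mRNA, with the 6 bases left out in lower case and the matched part in capitals. The number in each name is the distance of the read start from the transcript start in bases.
Hoxc8 828: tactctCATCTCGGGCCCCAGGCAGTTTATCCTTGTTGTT
Hoxc8 825: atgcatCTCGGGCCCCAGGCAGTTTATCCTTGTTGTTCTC
Hoxc8 821: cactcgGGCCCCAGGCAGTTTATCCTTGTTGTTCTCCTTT
Hoxc8 815: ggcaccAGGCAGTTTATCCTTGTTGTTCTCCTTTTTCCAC

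All of these hold the 21-base run AGGCAGTTTATCCTTGTTGTT and match the annotated transcript without a mismatch. The position at base 828 had 31 reads of 15 sequences, that at 825 had 18 reads of 7 sequences, that at 821 had 15 reads of 7 sequences and that at 815 had 12 reads of 3 sequences. Hoxc8 also had 33 antisense reads at 8 positions, all of them repeat-like. A read is called repeat-like here when its matched part equals itself at a shift of 1 to 6 bases in at least 60% of its bases, as runs of CA do. Of the sense reads of Hoxc8, 55 were repeat-like, and 262 remained without them.

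The other Hox genes were read at a few positions each. The 16 listed Hox genes had 471 sense reads, 154 without Hoxc8, and 51 antisense reads (9.77%). Hoxa3, an anterior HoxA gene, had 34 sense reads at 9 positions, 30 of them on noncoding isoforms, with 14 at 1 base, and 3 antisense reads. Hoxc10, a posterior HoxC gene, had 19 sense reads at 3 positions, 14 at coding base 845 of its transcript, and 3 antisense reads. Hoxa9, a posterior HoxA gene, had 19 sense reads at 5 positions, 8 at 1 base, and 1 antisense read. Hoxd9, Hoxb4, Hoxd3, Hoxa5, Hoxa13, Hoxb1, Hoxb9, Hoxb13 and Hoxc4 had 1 to 16 sense reads and 0 to 3 antisense reads each. Of these, the 10 sense reads of Hoxa5 were all repeat-like, and so were 7 of the 15 of Hoxb4. Hoxa2, Hoxd1 and Hoxd13 had no read on either strand. A count of 0 is taken to allow up to 3 reads, which are levels of 0.0536, 0.0511 and 0.0383 RPKM.

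Among neural regulators, Nes and Otx2 were read most. Nes encodes nestin, an intermediate filament protein of neural progenitors, and is the only listed coding gene here that is not a transcription factor (chromosome 3, 87971078 to 87980451, plus strand). It had 205 sense reads (178 to 235) at 52 positions and 1.01 RPKM, with 8 antisense reads at 4 positions. Of its sense reads 204 began in the coding sequence and 197 (96.1%) in the last exon, and the highest position held 19. Otx2, a homeobox factor of forebrain and epiblast (chromosome 14, 48657677 to 48673819, minus strand), had 133 sense reads (111 to 158) at 18 positions and 0.999 RPKM. Of these 127 (95.5%) began in the last exon, with 38 at base 1177, 25 at base 1391 and 32 at base 2549, which is 43 bases from the transcript's end. At base 1177 a single sequence with 1 mismatch made up 37 of the 38 reads, whereas base 1391 had 6 sequences. Otx2 had 18 antisense reads at 4 positions. The highest coding positions of these genes are shown in the same layout as for Hoxc8.
Nes 4103: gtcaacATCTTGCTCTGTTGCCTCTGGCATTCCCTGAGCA
Otx2 1177: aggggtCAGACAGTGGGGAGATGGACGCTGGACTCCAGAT
Otx2 1391: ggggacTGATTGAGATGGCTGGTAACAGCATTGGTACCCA

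The remaining neural regulators had fewer reads, and several had more in antisense than in sense. Sox1, an early neural SoxB factor, had 32 sense reads (22 to 45) at 3 positions, 29 at 1 base of the downstream untranslated sequence, and 10 antisense reads at 6 positions. Pax6, a regulator of eye and forebrain, had 27 sense reads, from 13 positions, and 21 antisense reads from 12, with 13 repeat-like reads on each strand and 488 further reads that matched several genes. Six3, a forebrain and eye homeobox gene, had 13 sense reads, 11 at 1 base of the upstream untranslated sequence, and 14 antisense reads at 9 positions. Dlx1, a homeobox gene of forebrain interneurons, had 8 sense reads, all at 1 base, and 14 antisense reads at 3 positions. Pax3, a neural crest and muscle regulator, had 9 sense reads and 29 antisense reads. Pax2, a regulator of midbrain and kidney, had 8 sense reads, from 7 positions, and 25 antisense reads from 9. The other listed neural genes, Pax7, Lhx1, Lhx2, Nkx2-2, Neurog1, Olig2, En1, Zic1, Foxd3, Dlx2 and Msx1, had 0 to 10 sense reads and 0 to 9 antisense reads each.

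In the mesoderm, heart and blood group, Hes1, Meis1 and Tbx2 had most of their sense reads at 1 base. Hes1, a Notch-responsive repressor of the bHLH family (chromosome 16, 30064384 to 30067796, plus strand), had 61 sense reads (47 to 78) at 10 positions and 0.95 RPKM. Of these 41 began at 1 base, 28 bases from the transcript's end, and 39 of the 41 were of a single sequence. Its 23 antisense reads lay at only 2 positions, 13 at base 530 in the coding sequence, all of 1 sequence, and 10 at base 292, of 4 sequences. The position at base 530 is shown because it carries most of the antisense count of a gene that is otherwise read in sense, and its read has the letters of the mRNA itself.
Hes1 antisense 530: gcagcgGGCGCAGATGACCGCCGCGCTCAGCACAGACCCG

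Meis1, a homeobox cofactor of Hox proteins (chromosome 11, 18879817 to 19018985, minus strand), had 60 sense reads (46 to 77) at only 2 positions. Of these 50 began at 1 base of an isoform annotated as noncoding, 44 of them of a single sequence, and 10 at base 241 of its chosen transcript. It had 21 antisense reads at 9 positions. Tbx5, a T-box factor of heart and forelimb, had 63 sense reads (48 to 81) at 17 positions, 58 in the downstream untranslated sequence. Of all 63 sense reads of Tbx5, 36 were repeat-like and 12.7% matched without a mismatch. A further 1192 reads matched Tbx5 and other genes equally well. Tbx2, a T-box repressor of heart and limb, had 24 sense reads, 21 at 1 base, and 3 antisense reads. Foxc1, a forkhead factor of paraxial mesoderm, had 23 sense reads at 4 positions, 11 at 1 base, and 3 antisense reads. Gata2, a regulator of blood stem cells, had 9 sense reads, from 4 positions, and 17 antisense reads from 5. The other genes of the group, T, Nkx2-5, Hand1, Hand2 and Evx1, had 0 to 5 sense reads and 0 to 9 antisense reads each.

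In the endoderm and extraembryonic group, Eomes was the only gene with more than 5 sense reads. Eomes, a T-box factor of trophoblast and mesendoderm (chromosome 9, 118478212 to 118486132, plus strand), had 60 sense reads (46 to 77) at 6 positions, 0.458 RPKM, and 1 antisense read. Of its sense reads 38 began at base 1773 in the coding sequence, from 7 distinct sequences, and 14 at base 3516, 44 bases from the transcript's end. Gata4, Foxa1, Cdx2 and Sox17 had 1 to 5 sense reads. Gata6 and Foxa2, regulators of primitive and definitive endoderm, had 0 sense reads, which allows levels of up to 0.0146 and 0.0402 RPKM, with 28 and 6 antisense reads. The leading read of the highest Eomes position was as follows.
Eomes 1773: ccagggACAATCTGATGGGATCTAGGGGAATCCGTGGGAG

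Irx3 was the highest Iroquois gene, and its reads lay near its start. The Iroquois genes are homeobox regulators of neural and heart patterning. Irx3 (chromosome 8, 91798525 to 91802067, minus strand) had 79 sense reads (63 to 98) at 20 positions, 0.907 RPKM, and 1 antisense read. No position held more than 10. Of these reads 75 began in the first exon and 69 (87.3%) within 500 bases of the GENCODE transcript start, a window that makes up 18.2% of the transcript's length. The RefSeq start lies 413 bases downstream of the GENCODE start, and 67 of the 79 reads, at 14 positions, began before it. In GENCODE terms 73 reads lay in the upstream untranslated sequence, and 31 of the 79 were 36-base reads. Irx1, Irx2 and Irx5 had 2 or 3 sense reads each and 0, 0 and 7 antisense reads.

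Hand2os1, the noncoding RNA divergent from the heart regulator gene Hand2 (chromosome 8, 57281117 to 57324233, minus strand), had 37 sense reads (26 to 51) at 9 positions and 0.0914 RPKM. Of these 25 were repeat-like and 21.6% matched without a mismatch, and 208 further reads matched several genes. It had 7 antisense reads at 3 positions, and Hand2 itself had 1 sense read. The read of its highest position, with 18 reads, shows what a repeat-like read looks like and differs from the reference at 1 base.
Hand2os1 563: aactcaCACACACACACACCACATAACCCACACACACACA

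**Figure D3:**
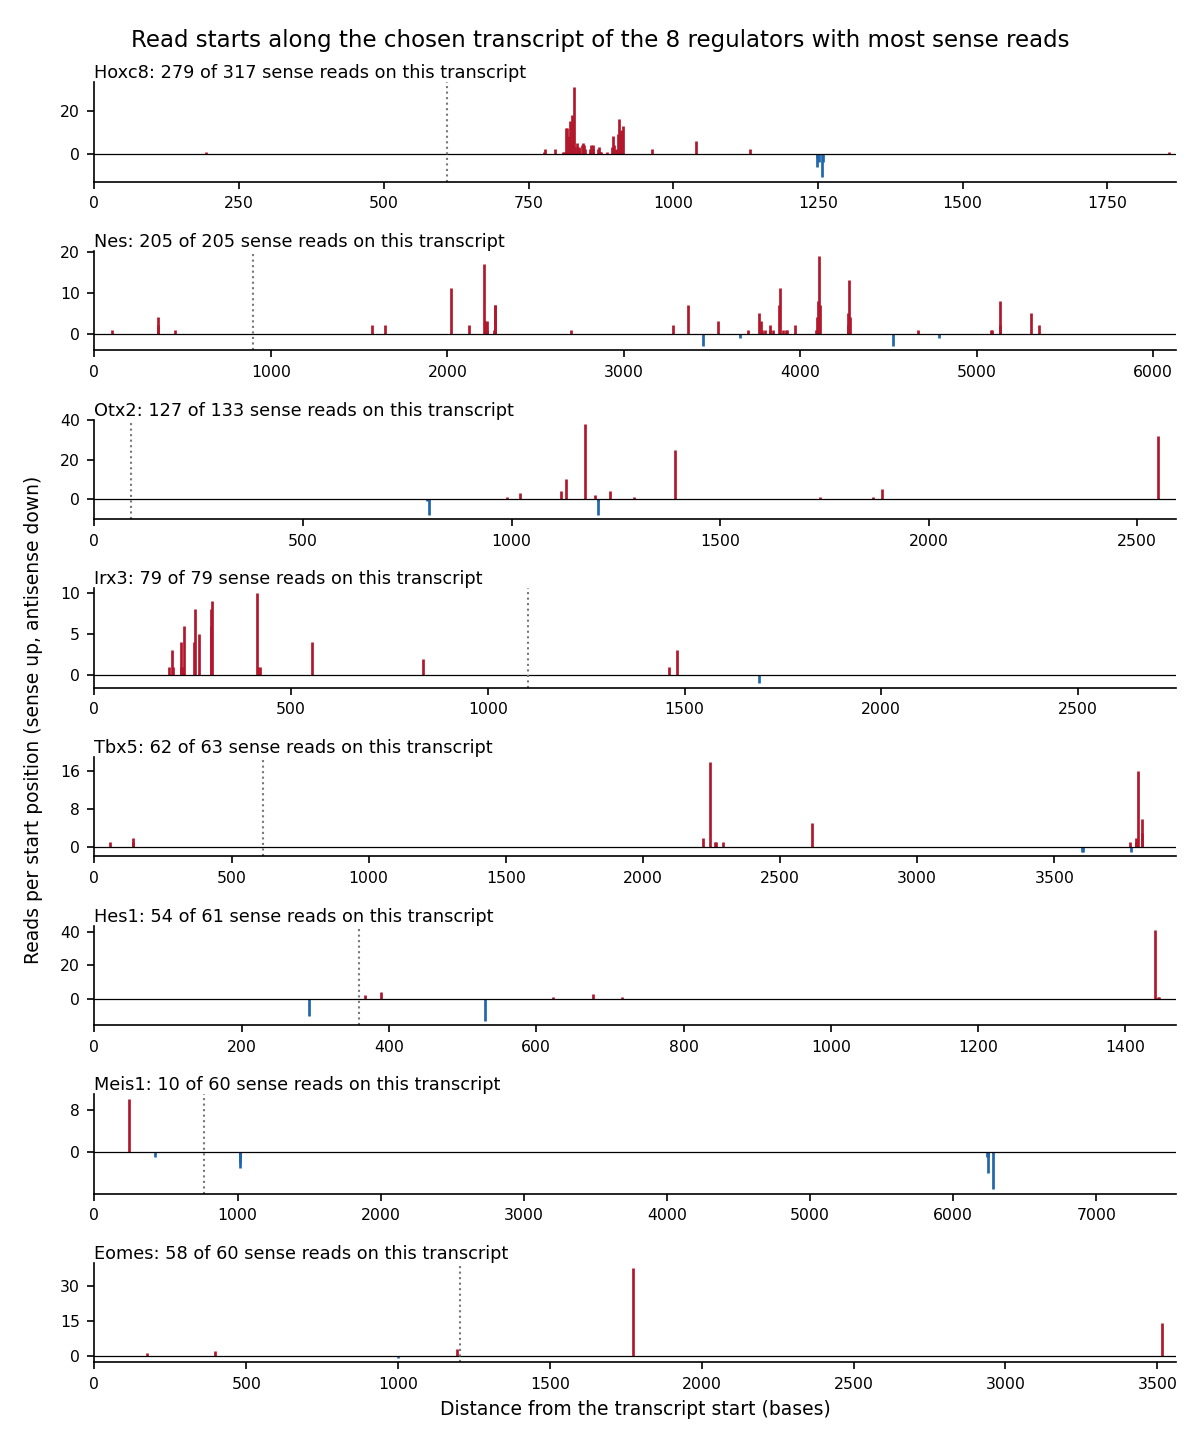
Reads per start position along the chosen transcript of the 8 regulators with most sense reads (distance from the transcript start in bases, linear axes of their own), sense upward in red and antisense downward in blue. Dotted lines mark the end of the first exon. Irx3 reads gather near the start, Hoxc8 reads around bases 815 to 914, and Hes1 has 41 of its 61 sense reads at 1 base near the end.

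No sense read was found for 10 regulators. Hoxa2, Hoxd1, Hoxd13, Nkx2-2 and Msx1 had no read on either strand. Nkx2-2, a ventral neural tube regulator, and Msx1, a homeobox gene of neural crest and limb, had limits of 0.0331 and 0.0307 RPKM by the same 3 reads. Neurog1, a proneural factor, had 5 antisense reads, Olig2, an oligodendrocyte and motor neuron factor, had 2 and Nkx2-5, an early heart factor, had 1. Their limits in sense were 0.0564, 0.0376 and 0.0554 RPKM. Across the 10 genes the limit ran from 0.0146 RPKM (Gata6) to 0.0564 RPKM (Neurog1).

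Antisense reads made up 21.6% of the reads of the regulators (19.7 to 23.6), against 12.5% for nuclear protein-coding genes and 26.6% (25.3 to 27.9) for the stem cell markers. Counting each start position once, it was 32.2% (28.0 to 36.7) for the regulators and 23.0% for nuclear protein-coding genes. Among the 42 regulators that are not Hox genes it was 26.6% (24.1 to 29.1), and among the 16 listed Hox genes 9.77% (7.36 to 12.7), or 10.5% (6.32 to 16.03) without Hoxc8. The 23 Hox genes that are not listed had 31.9% (27.7 to 36.3), and all 39 together 20.3% (17.9 to 22.9). By role it was 45.2% (36.4 to 54.35) in the endoderm and extraembryonic group, with 57 antisense and 69 sense reads, and 29.6% (20.8 to 39.7) without Gata6, whose 28 antisense reads began at a single base. It was 26.8% in the neural group, 25.5% in the mesoderm, heart and blood group and 8.42% in the Iroquois genes. Of all antisense reads of the regulators 34.3% were repeat-like, against 13.3% of their sense reads.

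Of the 22 regulators with at least 20 reads over both strands, 3 (13.6%) had an antisense share whose whole interval lay above 50%, against 18.8% of nuclear genes with as many reads. For 15 the interval lay below 50% and for 4 it spanned 50%. Gata6 had all of its 28 reads in antisense (87.7% to 100%), at a single coding base and 24 of them of 1 sequence. Pax3 had 29 of 38 reads in antisense (76.3%, interval 59.8% to 88.6%), 26 of them at 1 base, and 28 of the 29 were repeat-like. Pax2 had 25 of 33 reads in antisense (75.8%, interval 57.7% to 88.9%), at 9 positions of which the highest held 11, and 2 of the 25 were repeat-like. With repeat-like reads left out, 5 reads of Pax3 remained, too few for a call, whereas Pax2 kept 23 of 31 and Gata6 28 of 28 reads in antisense. By start positions, 9 of 16 of Pax2, 4 of 9 of Pax3 and the single one of Gata6 were antisense, too few for a call in each gene. The shares of Gata2 (65.4%), Dlx1 (63.6%), Six3 (51.9%) and Pax6 (43.8%) had intervals on both sides of 50%. Foxa1, which with 19 reads fell short of the minimum and is named because its values had been seen, had 18 antisense reads at 7 positions and 1 sense read.

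**Figure D4:**
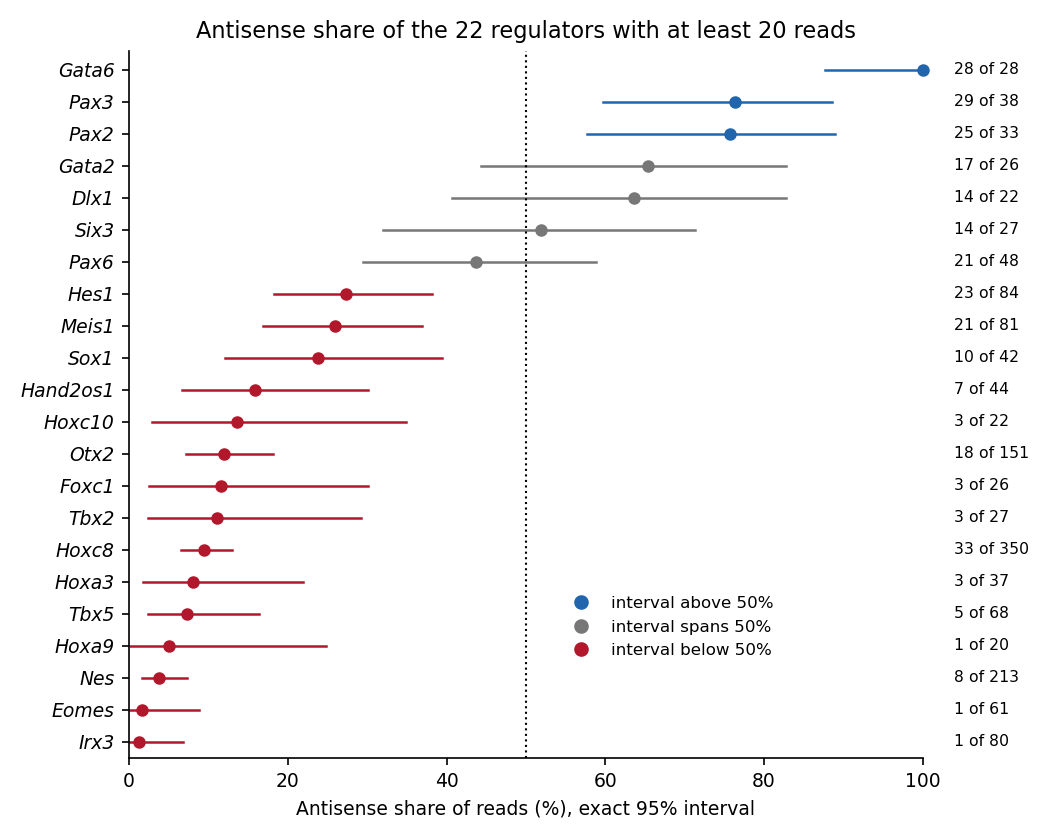
Antisense share (%) of the 22 regulators with at least 20 reads over both strands, with exact 95% intervals and the antisense reads of all reads at the right. The intervals of Gata6, Pax3 and Pax2 lie above the dotted line at 50%.

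Some regulators share bases with an annotated gene on the other strand. In all, 19 overlap 28 genes on the other strand, of which 3 had at least 20 reads: Zic4, Hand2os1 and Six3os1. Zic4, which overlaps Zic1, had 3 sense and 51 antisense reads. Six3os1, which overlaps Six3, had 13 sense reads, which came from 6 positions, and 19 antisense reads from 5 positions. The assignment favours the gene that a read matches in sense, so reads from a stretch shared by Six3 and Six3os1 count for the gene whose RNA has their orientation. Pax3 overlaps no annotated gene on the other strand, the genes that overlap Pax2 had 2 reads in all, and that which overlaps Gata6 had 0.

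Read counts of the regulators rested on few bases. The highest position of each regulator together held 36.99% of their sense reads, against 21.5% for nuclear protein-coding genes. It was 38.8% for a list of 82 further lineage regulators and 49.2% for the 23 Hox genes not listed. For the stem cell markers, with a median of 156 sense reads against 8 for the regulators, it was 20.4%. None of the comparisons here was matched for the number of reads per gene. Of the 47 coding regulators with a sense read, 13 had a single sense position (27.7%), against 15.1% of nuclear protein-coding genes with a sense read. Of the 13 coding regulators with at least 20 sense reads, 6 had at least 50% of them at 1 base (46.2%). Of nuclear protein-coding genes with at least 20 sense reads it was 16.1%. The 6 regulators were Meis1, Hes1, Eomes, Sox1, Tbx2 and Pax6. Hoxc8, Nes and Irx3 lay at the other end, with 60, 52 and 20 positions and no more than 31, 19 and 10 reads at any of them. How many RNA molecules a count from 1 base and mostly 1 sequence stands for, as in Hes1 and Meis1, was not tested.

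**Figure D5:**
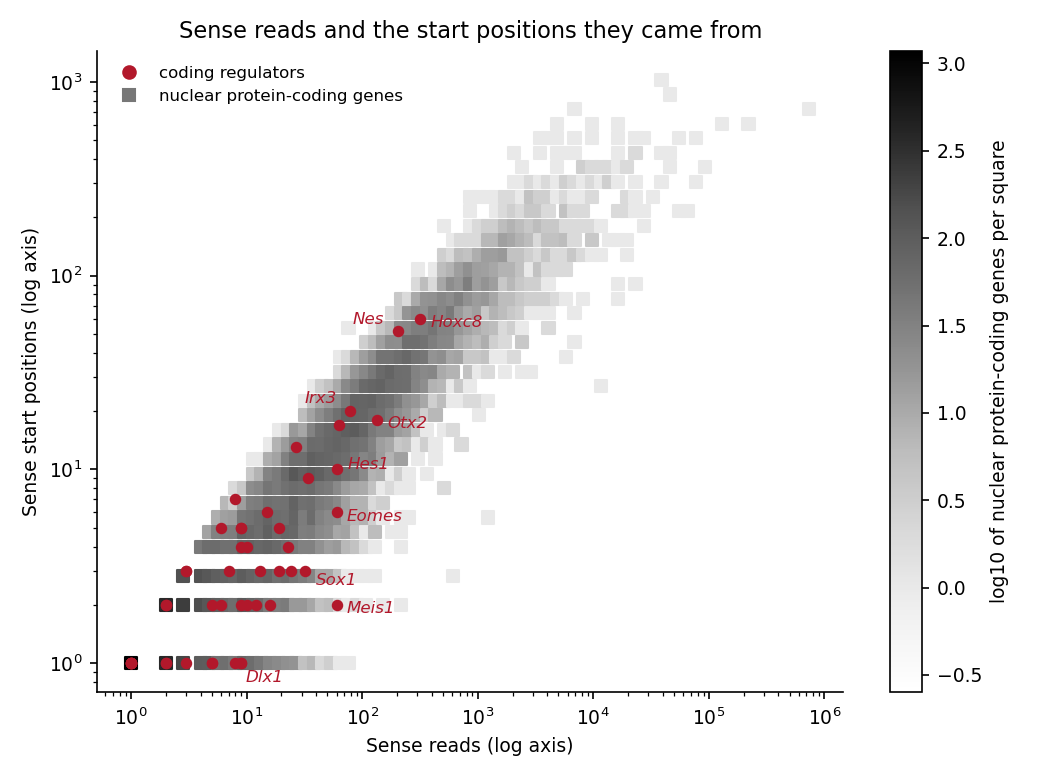
Sense reads against sense start positions (both log axes) for the coding regulators with a sense read (red) over counts of nuclear protein-coding genes (grey squares). Meis1 with 60 reads at 2 positions and Sox1 with 32 at 3 lie low in the cloud, and Hoxc8 with 317 reads at 60 positions lies within it.

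Sense reads of the regulators were distributed over the transcripts otherwise than those of coding genes. For coding regulators 47.8% of sense reads began in coding sequence (45.1 to 50.5), against 78.4% for nuclear protein-coding genes. Downstream untranslated sequence took 27.8% against 15.3%, upstream untranslated sequence 12.2% against 1.28%, and noncoding isoforms 12.2% against 5.03%. Irx3 held 73 of the 166 reads in upstream untranslated sequence, and the share was 7.27% (5.91 to 8.83) without it. Upstream sequence is 18.1% of the transcript length of the regulators, against 5.93% in coding genes with at least 50 sense reads. Between the same groups, coding sequence is 40.3% of the length against 48.4%, and downstream sequence 41.6% against 45.7%. In genes whose chosen transcript has several exons, 21.8% of the regulators' sense reads (19.6 to 24.2) began in a first exon. The share was 3.52% for nuclear protein-coding genes. The first exons of the regulators are also longer, at 27.8% of the transcript length, against 7.04% in coding genes with at least 50 sense reads. Without Irx3 the share in the first exon was 17.1%. A read off the chosen transcript counts by the exon of the isoform it was placed on. Of the 39 first-exon reads of Hoxc8, 38 lay on a noncoding isoform. So did 14 of the 27 of Pax6, all 12 of Hoxd3 and all 10 of Lhx2. Within 500 bases of the start lay 14.9% of the sense reads of the regulators (13.1 to 16.9), against 12.1% for nuclear protein-coding genes, and that window is 16.5% of the transcript length of the regulators, against 11.1% in coding genes with at least 50 sense reads. Without Irx3 the share was 10.6% (8.95 to 12.4). For reads off the chosen transcript, the start is that of the isoform giving the smallest distance, which can lie inside the gene. The 14 reads of Pax6, 10 of Hoxd3 and 10 of Lhx2 in the window were measured from noncoding isoforms in this way. Among the 8 highest regulators only Irx3 had most of its sense reads in that window.

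The reads of the regulators also matched less well and were more repetitive. Of their sense reads 75.8% matched without a mismatch (73.5 to 78.1), against 88.3% for nuclear protein-coding genes, and 13.3% were repeat-like, against 2.86%. Among the 8 highest regulators the share without a mismatch was 12.7% in Tbx5, 61.65% in Otx2, 75.95% in Irx3 and 80.1% in Hoxc8. In Nes it was 89.3%, in Eomes 90.0%, in Hes1 91.8% and in Meis1 98.3%. Of the 186 repeat-like sense reads Hoxc8 held 55, Tbx5 36, Hand2os1 25, Pax6 13 and Hoxa5 10. Left without repeat-like reads, 7 regulators still had at least 50 sense reads and 12 had at least 20. Reads of 36 bases made up 20.4% of the sense reads of the regulators, against 10.9% for nuclear protein-coding genes. The table gives no origin for reads of either length. Of the 48 regulators with a sense read, 35 were read at both lengths, and 68 start positions were shared between the 165 found in 36-base reads and the 200 found in 40-base reads. Of the 36-base sense reads 49.5% began at a position that 40-base reads also used.

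Other genes of the same kinds gave a like picture of low counts with single exceptions. Of all 39 Hox genes 28 had a sense read and 3 had at least 50. Hoxd11, a posterior HoxD gene, had 135 sense reads, of which 81 began at 1 base. Most antisense reads of a Hox gene were the 45 of Hoxc9, at 10 positions, followed by those of Hoxc8. A list of 82 further lineage regulators had a median of 0.0310 RPKM, with a sense read for 55 and at least 50 sense reads for 4. Among these were Meis2, a relative of Meis1, with 61 sense reads at 20 positions, and Emx2, a cortical homeobox gene, with 58 at 19 positions. Antisense reads were 41.6% of all reads of that list (39.2 to 44.1), led by Sox14, a SoxB factor with 58 antisense reads and no sense read, and Zic4.

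The labelled cell type was checked by its markers. All 12 stem cell markers had reads and 9 had at least 50 sense reads, led by Tfcp2l1 with 1023, Zfp42 with 621, Pou5f1 with 429 and Klf4 with 413 sense reads. Antisense reads were most numerous for Pou5f1, with 368, and Tfcp2l1, with 334. All 8 markers of fibroblasts also had at least 50 sense reads, in all 57107, with a median of 15.98 RPKM and a range of 2.56 to 108 RPKM. The highest were Fn1 with 39714, Postn with 5268, Col1a1 with 3775 and Acta2 with 3261 sense reads, and most antisense reads were on Fn1 (2728) and Col1a2 (1251). The part of fibroblast RNA in the reads of Hoxc8 and the other regulators was not tested. In such a pool fewer cells of a type and less RNA per cell cannot be told apart.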

How the data were processed

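The labels describe 7 libraries, and the authors deposited 1 table that pairs every distinct read sequence with a raw read count, without a header, and no label says which library it belongs to. How the authors filtered reads, and their aligner, are not given in the sources used here. A build, mm9, is named in the submitters' processing notes, but the table itself gives sequences only. Coordinates here are those of GENCODE M21 on GRCm38. Samples were therefore not grouped, and no test, SD or control comparison was made.

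The 6 leading bases were left out, at least 20 had to remain, and reads were matched to GENCODE transcripts with bwa 0.7.19, with up to 2 mismatches, no gaps and up to 1000 listed placements. Reads were the reverse complement of the RNA. A read was kept for a gene when no other gene held an equally good placement, apart from genes that overlap it on the opposite strand. Of searched reads, 36% were assigned and 10.7% matched several genes. The chosen transcript was the longest protein-coding one, or the longest one for a noncoding gene. A read not placed on it was placed on the isoform of the gene that gave the smallest distance. Introns and flanks were not searched, since no genome was used, other than the 250 bases before each start in the RefSeq promoter table. The cells are partly of M. castaneus origin, per the labels, so strain differences can use up allowed mismatches. Intervals were computed with scipy 1.17.1, and a count of 0 was given a limit of 3 reads. The assignment was tested on simulated data.

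Regulators with at least 20 reads over both strands are named with their positions, those without a sense read by name, the others by range, and from each further list the 4 genes with most sense and the 2 with most antisense reads, as well as overlapping genes with at least 20 reads. Some genes that this rule takes are not reported here. The regulators, lists and rules were chosen with earlier results of these data known. The mark for repeat-like reads, the values without Hoxc8, Irx3 or Gata6 and the search of promoters were added after seeing the data.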

Additional observations from a re-analysis of the deposited data

How the results depend on the processing

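No replicate, batch or control is known for these reads, so the values describe 1 pool, and depth limits them to genes with more than a few reads. No paired analysis was possible because no column of the table belongs to a sample. Alternatives below changed 1 choice at a time. The median RPKM was not recomputed from start positions. The causes of the shifts were not tested.

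The number of regulators with at least 50 sense reads was 8. It was 7 with no mismatch, 7 without repeat-like reads and 6 in 40-base reads. It was 2 when each start position or each distinct sequence was counted once, 5 with no leading base left out, 1 in 36-base reads and 13 with reads of several genes included, and 14 regulators had at least 20 sense reads. The median level was 0.156 RPKM with distinct sequences, scaled to their own total, and 0.0136 RPKM with the highest position of each regulator left out, against 0.0598 RPKM.

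The antisense share of 21.6% became 32.2% by start positions, 25.8% by distinct sequences, 19.4% with no mismatch, 32.3% in 36-base reads, 17.6% in 40-base reads, 17.7% with no other gene within 1 further mismatch, 33.6% with reads of several genes, 16.1% without the highest positions, 17.3% without repeat-like reads and 24.6% without Hoxc8. The first exon share of 26.5%, all transcripts counted, became 34.7% by start positions, 29.7% by distinct sequences, 23.7% with no mismatch, 38.95% in 36-base reads, 40.5% with reads of several genes, 22.2% without repeat-like reads and 30.7% without Hoxc8.

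The share within 500 bases of the start, 14.9%, became 22.5% by start positions, 18.6% by distinct sequences, 24.6% in 36-base reads, 12.8% in 40-base reads, 23.7% with reads of several genes, 17.8% with the nearest isoform start, 19.02% without Hoxc8 and 8.03% within 300 bases. The share at the highest positions, 36.99%, became 24.5% by distinct sequences, 41.5% with no mismatch, 42.2% with no leading base left out, 34.04% in 36-base and 43.2% in 40-base reads, 21.4% with reads of several genes, 40.2% without repeat-like reads and 45.0% without Hoxc8.

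The 3 regulators with an antisense interval above 50% became 0 by start positions, in 36-base reads and without the highest positions, and 1 (Meis1) by distinct sequences. In these settings the 3 genes fell below the minimum of 20 reads, so that no call could be made, other than Pax2 without the highest positions, with 14 of 20 reads in antisense (70.0%). The number was 10 with reads of several genes included, and Pax3, with 57 of 105 reads in antisense (54.3%), was not among them. The number was 2, Pax2 and Gata6, with no mismatch and without repeat-like reads, where Pax3 had 8 and 5 reads. The same 2 were called with no leading base left out and with no other gene within 1 further mismatch, where Pax3 had 9 reads in each. For single genes 4 antisense shares were counted as reversed across 50%. These were Meis1 at 75.0% by distinct sequences and Pax3 at 11.1% (1 of 9 reads) with no leading base left out. The others were Sox1 at 68.8% and Meis1 at 77.6% with reads of several genes included. Pax3 was also below 50% in other settings that left it under 20 reads, from 12.5% with no mismatch to 44.4% by start positions. These were not counted as reversed. Of 242 recounts of sense reads of single genes 134 stayed within the main interval and 108 did not. Of 241 antisense shares 173 did, 64 did not, and the 4 just named were counted as reversed.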

Other observations

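The noncoding RNAs of the Hox clusters, among which are RNAs known for a link to PRC2, had few reads. Of 11 listed, 8 had a sense read, with 39 sense and 21 antisense reads in all. Halr1, transcribed near the HoxA cluster, had the most with 11 sense reads at 6 positions, followed by Hoxb3os with 7, Hoxd3os1 with 6, and Haglr, Hoxb5os and Hotair with 4 each. The 13 antisense reads of Hoxaas3 began at 1 base, and Hoxd3os1 had 7 antisense reads at 5 positions. Hottip, Hoxaas2 and Hoxa11os, named because their values had been seen, had no read on either strand.

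Of 11 annotated RNAs antisense to or divergent from lineage regulators, 7 had a sense read. Sox2ot, which contains the Sox2 gene in its intron, had 84 sense reads, from 23 positions, and 17 antisense reads from 12. Otx2os1 had 14 sense reads, 10 at 1 base, Six3os1 had 13 and Lhx1os had 7, all at 1 base. Sox1ot had 20 antisense reads at 6 positions and 1 sense read.

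The RefSeq promoter table of build GRCm38 held 44 of the 58 regulators. Each window there runs from 250 bases before the start to 50 after. The ratio of observed to expected CG dinucleotides covers 250 bases of it and had a median of 0.732 in the regulators and 0.558 in nuclear protein-coding genes. The ratio was above 0.6 in 31 regulators (70.5%), against 46.7% of those genes. Reads without a place on a transcript were matched to the 250 bases before the start, and 10 regulators had such reads (22.7%), against 13.1% of nuclear protein-coding genes. The regulators had 3 such reads in sense and 44 in antisense, or 21 in antisense without Eomes, against 15482 in sense and 4550 in antisense for nuclear protein-coding genes. Of the antisense reads 23 lay at 1 position before Eomes, 10 at 2 positions before Hoxb4, 4 before Nkx2-2 and 3 before Foxd3. Reads with a place on a transcript were left out of this search, so these counts do not give the balance of strands before the starts. Left out in this way were the 67 sense reads of Irx3 that began before its RefSeq start, and Irx3 has no read in these counts.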
